A study of Mus musculus with 32 samples.

Results

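The comparison described here is that of *Etv5*-KO embryonic stem cells (ESCs) with RGd2 ESCs 16 h after withdrawal of 2i (N16h). Its members are the 5 libraries of these groups, 3 of RGd2 and 2 of *Etv5*-KO, out of 32 libraries in the series, and the 13461 genes, of 51826 in the table, with a mean of at least 1 CPM (count scaled to library size per 1e6 counts) in either group. All 13461 passed the filter for testing, and 918 of them reached that level in only 1 of the groups. RGd2 cells are mouse ESCs carrying the *Rex1::GFPd2* knockin reporter. Replicates 22 and 23 were the parental line and replicate 24 was a clonal RGd2 line. *Etv5*-KO lines were made from RGd2 cells with CRISPR/Cas9, and each library was a separate clonal line, c17 for replicate 17 and c1 for replicate 18. Both genotypes were kept in CH/LIF (the GSK3 inhibitor CHIR99021 with the cytokine LIF), were exchanged into 2i (CHIR99021 with the MEK inhibitor PD0325901) and then spent 16 h in N2B27 medium without inhibitors. With so few clones, differences between clones and differences between genotypes cannot be told apart for a single gene. The p-values rest on a spread estimated over all 32 libraries in a single model, not on these 5 alone. Replicates 22 and 23 are the same line but were counted as separate libraries. The series, which has RGd2 cultures and knockouts of *Etv5*, of *Rbpj* and of both or all of *Etv5*, *Rbpj* and *Tcf3*, asks how these factors contribute to exit from naive pluripotency. RNA depleted of ribosomal RNA was sequenced with ERCC spike-in transcripts, so that levels can be scaled to added RNA.

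Naive ESCs in 2i are held in self-renewal by a circuit of transcription factors that includes *Nanog*, *Esrrb*, *Tfcp2l1*, *Klf4* and *Tbx3*. Release of MEK/ERK and GSK3 from inhibition lets FGF4/ERK signalling dismantle that circuit, and cells begin to express factors of the formative epiblast such as *Otx2*, *Pou3f1*, *Fgf5* and the de novo DNA methyltransferases. ETV5, with ETV4 and ETV1, forms the PEA3 group of ETS transcription factors, which bind DNA at sites with a GGAA core and whose activity is raised by FGF/ERK signalling.

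The knockout rests on a pair of guide RNAs, shown here because they mark the part of *Etv5* that was targeted. *Etv5* lies on chromosome 16 (GRCm38, 22381309 to 22439719, minus strand), and both guides matched 3 of its 5 annotated transcripts (GENCODE M21). In the 13-exon transcript Etv5-201 the 20-base targets lie in the coding parts of exon 8 (chr16:22401804-22401823, minus strand) and exon 9 (chr16:22399336-22399355, plus strand). They are written 5′ to 3′ with the adjacent PAM in capitals.
exon 8: cgcagctccgccaccccttcAGG
exon 9: gaaatacccgcctctcatgtAGG
Cuts at both sites, each 3 bases before the PAM, are 2454 bases apart and enclose 162 exonic bases, all coding and a whole number of codons, which is 4.08% of the transcript's 3975 bases. The sequence of the mutant alleles was not analysed here.

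*Etv5* transcripts were reduced but present in the knockout. Normalized counts (raw counts divided by spike-in size factors) were 13157, 12468 and 11984 in the RGd2 libraries and 3373 and 2734 in the *Etv5*-KO libraries. Both knockout libraries were far below every RGd2 library (log2 fold change −2.04, standard error 0.18, adjusted p = 1.3e-11, from the quasi-likelihood test of edgeR after Benjamini-Hochberg adjustment, as in all that follows). Nearly all of the transcript lies outside the interval between the cuts. In 2i the same gene stood at 16791, 14116 and 15517 in RGd2 and at 2246, 2092 and 2384 in the knockout, so the groups were separate in both conditions. The other PEA3 genes were higher in the knockout at N16h. *Etv4* had 2545, 2223 and 3017 in the RGd2 libraries and 4143 and 4778 in the *Etv5*-KO libraries (log2 fold change 0.78, standard error 0.13, adjusted p = 8.09e-06). *Etv1* had 1413, 1282 and 1441 in the RGd2 libraries and 2221 and 2306 in the *Etv5*-KO libraries (log2 fold change 0.72, standard error 0.14, adjusted p = 0.000111). Neither gene had overlapping libraries, and both were also called higher with TMM scaling, at 0.55 and 0.48.

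The libraries held between 23096785 and 46695457 counts on genes. Replicates of a group had chi-square values per gene of 12.6 to 15.3, where counting noise gives about 1, so no library was a copy of another and the spread between libraries set the precision. Spearman's rho across genes was between 0.991 and 0.997 within groups, the lowest values being those of the clonal replicate 24 with the parental RGd2 libraries. Replicate 24 also nearly lacked the Y-linked transcripts *Eif2s3y*, *Ddx3y* and *Uty*, with at most 6.14 normalized counts each, where the other 4 libraries compared had at least 1407. Spike-ins made up 1.18% of counts in *Etv5*-KO and 1.37% in RGd2 (means, difference −0.19 percentage points). With 2 and 3 libraries the exact permutation test, two-sided, gave p = 0.1, the smallest value it can give.

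Of the 13461 expressed genes, 4424 differed between *Etv5*-KO and RGd2 at N16h (32.9%). The direction was uneven, with 3939 genes higher (29.3%) and 485 lower (3.6%) in the knockout. Among called genes the median log2 fold change was 0.66 for those higher and −0.96 for those lower, and 2306 of the higher and 386 of the lower genes changed at least 1.5-fold (17.1% and 2.87% of all). Of the 4424 called genes, 4385 had groups whose libraries were fully separate, as had 64.8% of all expressed genes (56.5% with the knockout higher and 8.27% with it lower). The median of all expressed genes stood at 0.24 on the log2 scale. TMM scaling, which sets the bulk of genes near no change, lowered this median by 0.23 and called 2302 genes higher (17.1%) and 1612 lower (12%; together 29.1%), so that the higher share of calls went from 89.0% to 58.8%. All 485 genes lower by the spike-ins and 2302 of the 3939 higher were called in the same direction with both scalings, and no gene was called in opposite directions. Without *Etv5*-KO replicate 18 the number of higher genes fell to 1911, and without replicate 17 the number of lower genes fell to 245. The plot of all expressed genes shows the unequal numbers and the distance of named genes from the median.

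**Figure D1:**
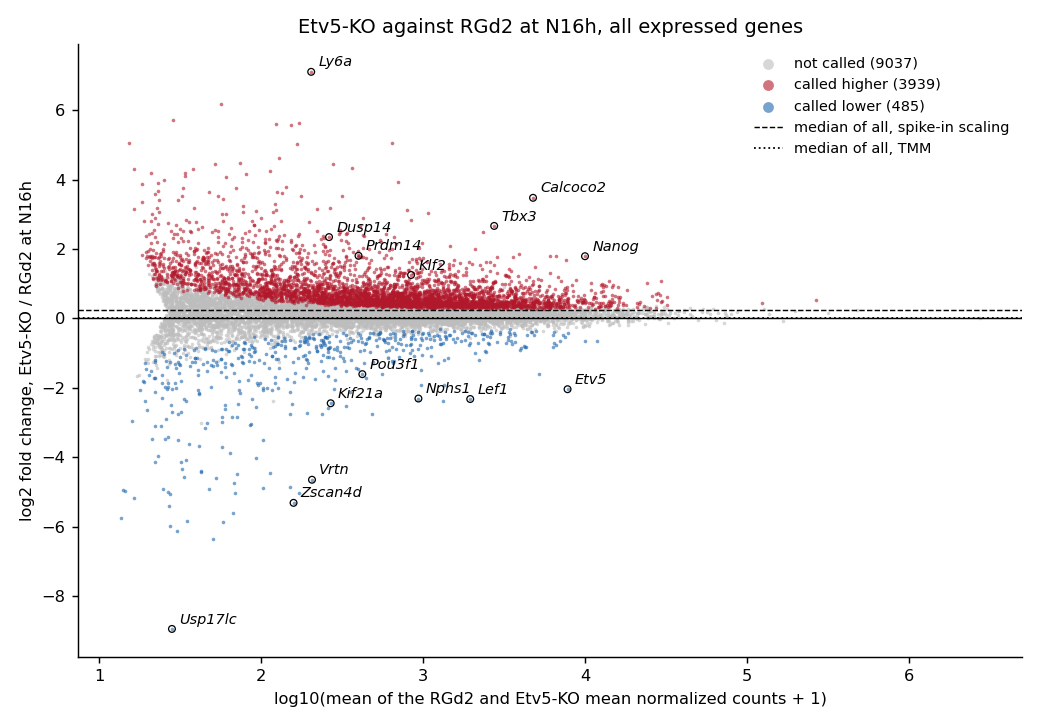
Each point is an expressed gene, with the mean level on the x axis (log10 of normalized count + 1) and the log2 fold change of *Etv5*-KO over RGd2 at N16h on the y axis. Red points (3939) were called higher and blue points (485) lower, circled genes are named in the text, and the dashed line at 0.24 is the median of all genes, which TMM scaling places at 0.01 (dotted, beside the line at 0).

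Naive pluripotency genes were higher in *Etv5*-KO with few exceptions. Of 24 listed and expressed, 21 were higher and 1 was lower, with spike-in and with TMM scaling alike, against 29.3% and 3.6% of all genes, and all 24 had separate libraries, as had 64.8% of all genes. The median log2 fold change was 0.89, beside 0.24 for all genes. The count of higher genes stayed between 20 and 22 over all settings tried, and without *Etv5*-KO replicate 17 none was lower.

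*Nanog*, a homeobox factor of the naive circuit, had 4399.7, 4466 and 4567 in the RGd2 libraries and 15563 and 15438 in the *Etv5*-KO libraries (log2 fold change 1.79, standard error 0.11, adjusted p = 3.23e-15). *Tbx3*, a T-box factor, had 709, 704 and 835 in the RGd2 libraries and 4547 and 4939 in the *Etv5*-KO libraries (log2 fold change 2.66, standard error 0.17, adjusted p = 4.75e-15). *Prdm14*, a repressor of FGF signalling and DNA methylation genes, had 186, 196 and 147 in the RGd2 libraries and 695 and 546 in the *Etv5*-KO libraries (log2 fold change 1.80, standard error 0.14, adjusted p = 1.25e-12). For these 3 genes each knockout library stood far above every RGd2 library. The Krüppel-like factors followed the same direction. *Klf2* had 602, 484 and 406 in RGd2 against 1140.4 and 1233 in *Etv5*-KO (log2 fold change 1.25, standard error 0.22, adjusted p = 3.72e-05). *Klf4* had 547, 533 and 479.9 in RGd2 against 1077 and 1076 in *Etv5*-KO (log2 fold change 1.05, adjusted p = 3.61e-07). *Klf5* had 1066, 974 and 919.9 in RGd2 against 2108 and 2378 in *Etv5*-KO (log2 fold change 1.18, adjusted p = 5.58e-07). The 3 factors differed by about the same fold, with no overlap between groups. The nuclear receptor *Esrrb* had 7599.8, 6865 and 7224 in RGd2 against 14355 and 14860.2 in *Etv5*-KO (log2 fold change 1.01, standard error 0.12, adjusted p = 2.27e-08). *Tfcp2l1*, a LIF and CHIR99021 responsive factor, had 4548, 4304 and 4846 in RGd2 against 9818 and 9402 in *Etv5*-KO (log2 fold change 1.07, standard error 0.14, adjusted p = 2.6e-07).

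Smaller differences were seen for *Nr0b1* (log2 fold change 0.80, adjusted p = 2.02e-05), for *Nr5a2* (0.81, adjusted p = 1.96e-06) and for *Zfp42* (0.73, adjusted p = 1.9e-05), the gene for REX1 whose locus holds the reporter. Among surface and signalling markers, *Jam2*, a junctional adhesion molecule, had 1691, 1654 and 1768 in RGd2 against 6092 and 6125 in *Etv5*-KO (log2 fold change 1.84, adjusted p = 8.17e-11). *Tcl1*, a co-activator of AKT, had 496, 485 and 328 in RGd2 against 1392 and 1344 in *Etv5*-KO (log2 fold change 1.64, adjusted p = 2.64e-11). *Gbx2*, a homeobox gene that responds to LIF, was the member that was lower, with 1069, 918 and 985 in RGd2 against 532 and 635 in *Etv5*-KO (log2 fold change −0.76, standard error 0.19, adjusted p = 0.002). Without *Etv5*-KO replicate 17 its value was −0.64 with an adjusted p of 0.0577. *Dppa3* and *Manba* were not called, at −0.71 (adjusted p = 0.366) and 0.25 (adjusted p = 0.231).

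The levels in 2i place these values. *Nanog* was at 24999 ± 4298 normalized counts in RGd2 in 2i (mean ± SD, n = 3) and 4478 ± 84.2 at N16h (n = 3), whereas *Etv5*-KO had 27482 ± 1292 in 2i (n = 3) and 15501 ± 88.2 at N16h (n = 2). *Tbx3* went with 3562 ± 519 and 749 ± 74.1 in RGd2 and with 5294 ± 483 and 4743 ± 277 in *Etv5*-KO. For both genes the knockout at N16h lay above RGd2 at N16h, and *Nanog* lay below its own level in 2i. Some members had higher means at N16h than in 2i in the knockout, among them *Klf5* with 2243 ± 191 against 763 ± 115, *Zfp42* with 14267 ± 353 against 7737 ± 406 and *Nr0b1* with 6229 ± 299.5 against 1709.6 ± 138. The plot of levels per library shows these groups side by side.

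**Figure D2:**
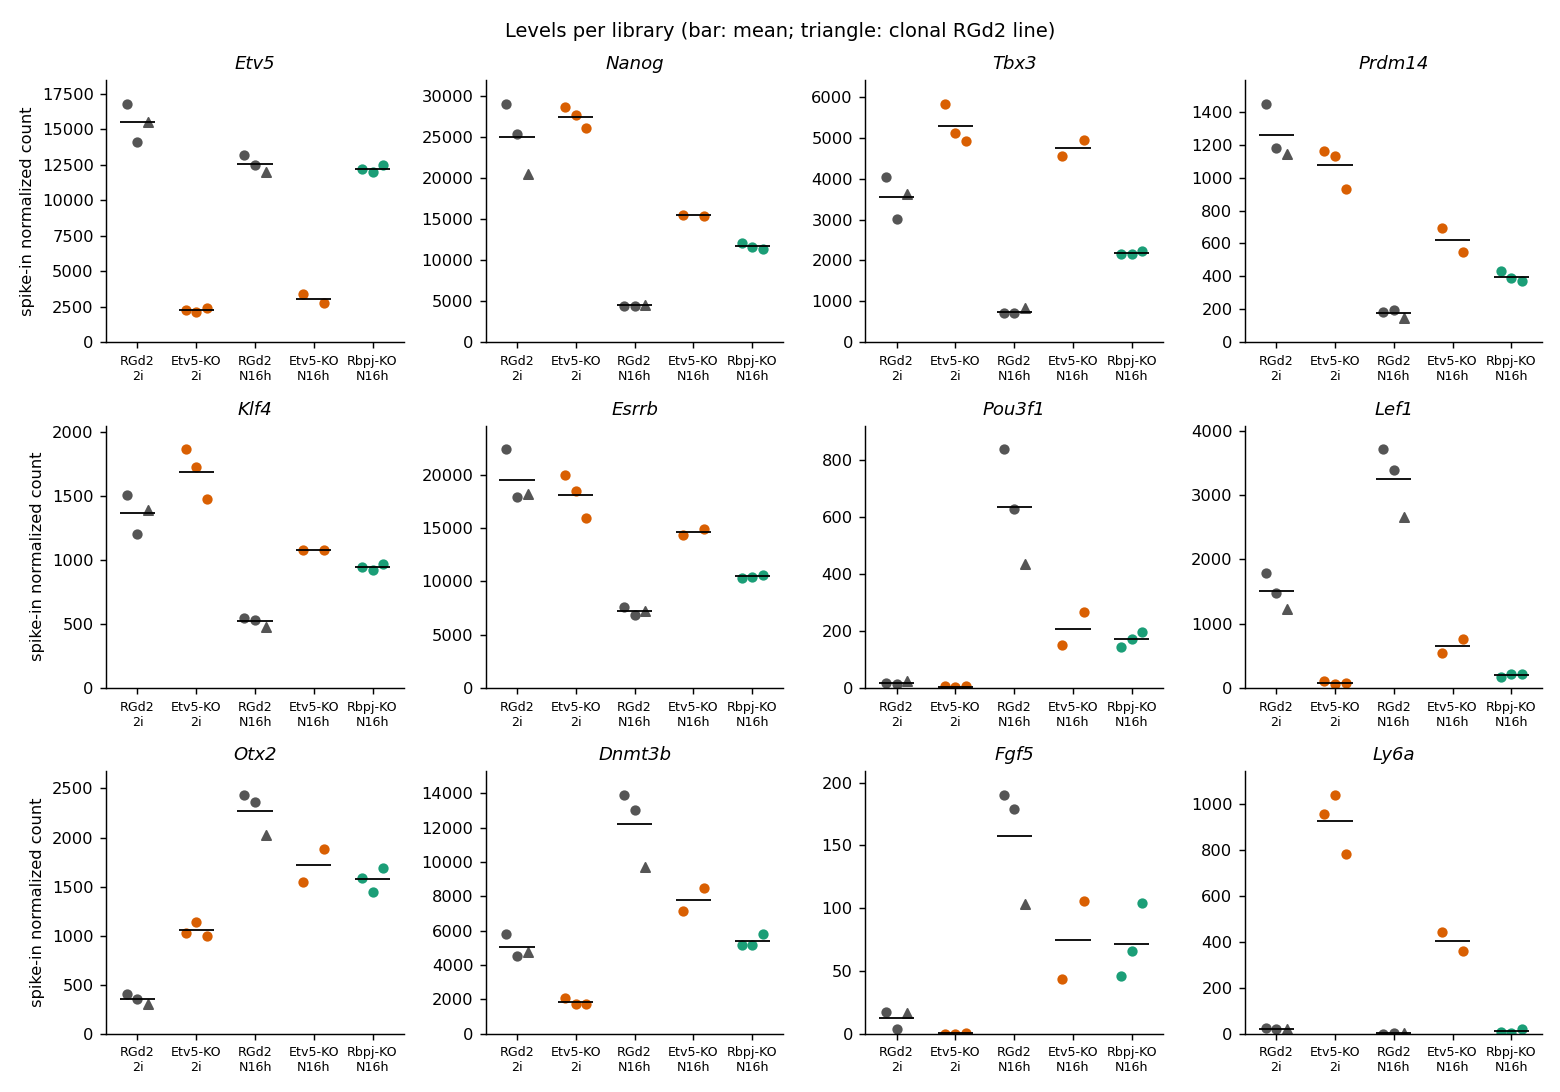
Spike-in normalized counts (y axis, linear from 0) of 12 genes in each library of RGd2 and *Etv5*-KO in 2i and at N16h and of *Rbpj*-KO at N16h, with the group mean as a bar and the clonal RGd2 line as a triangle. *Nanog* at N16h sits between 4399.7 and 4567 in RGd2 and at 15438 and 15563 in *Etv5*-KO, while *Lef1* sits between 2659 and 3711 in RGd2 and at 540.5 and 763 in *Etv5*-KO.

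General pluripotency genes are active in naive and formative cells alike. Of 15 expressed, 7 were higher and 0 lower (3 and 1 with TMM), against 29.3% and 3.6% of all genes (17.1% and 12% with TMM), and the list median was 0.30, beside 0.24 for all genes. With *Etv5*-KO replicate 18 left out, 3 genes were higher. *Pou5f1* (OCT4) had 24403, 25026 and 24120.5 in RGd2 against 34715 and 35189.6 in *Etv5*-KO (log2 fold change 0.51, standard error 0.10, adjusted p = 0.000145). *Sall4*, a zinc finger partner of OCT4, had 10252, 9229 and 8909.6 in RGd2 against 15691 and 17188 in *Etv5*-KO (log2 fold change 0.80, standard error 0.11, adjusted p = 4.04e-07). *Sox2* was called by the spike-ins (log2 fold change 0.45, standard error 0.13, adjusted p = 0.0069) but not with TMM, at 0.22, nor without *Etv5*-KO replicate 18, at 0.38 with an adjusted p of 0.125.

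Formative genes were on balance lower, though not uniformly. Of 23 expressed, 11 were lower and 4 higher (12 and 2 with TMM), against 3.6% and 29.3% of all genes. The list median was −0.34, and 15 of the 23 had separate libraries, beside 64.8% of all genes. For these genes the count of higher genes was 2 without *Etv5*-KO replicate 18. Without *Etv5*-KO replicate 17 the number of lower genes was 8. *Lef1*, an HMG-box factor that acts with beta-catenin, had 3711, 3393 and 2659 in the RGd2 libraries and 540.5 and 763 in the *Etv5*-KO libraries (log2 fold change −2.32, standard error 0.20, adjusted p = 1.3e-11). *Pou3f1*, the POU factor OCT6, had 836, 627 and 436 in the RGd2 libraries and 150.4 and 266 in the *Etv5*-KO libraries (log2 fold change −1.60, standard error 0.26, adjusted p = 9.61e-06). For both genes the higher of the knockout libraries was below the lowest RGd2 library, which was the clonal replicate 24.

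Other transcription factors of the list that were lower include *Sox11* (−1.59, adjusted p = 1.57e-07), *Tcf15* (−1.24, adjusted p = 1.6e-06), a basic helix-loop-helix factor, and *Sall2* (−0.84, adjusted p = 2.95e-05). *Otx2*, a homeobox factor that leads the formative programme, had 2432, 2363 and 2030.2 in RGd2 against 1546 and 1885 in *Etv5*-KO (log2 fold change −0.41, standard error 0.13, adjusted p = 0.0172). Its libraries were separate by a small margin, and the call was lost without RGd2 replicate 22 (−0.36, adjusted p = 0.0668), RGd2 replicate 23 (−0.38, adjusted p = 0.0573) or *Etv5*-KO replicate 17 (−0.27, adjusted p = 0.262). The ligand *Wnt8a* had 50.3, 38.6 and 42 in RGd2 against 8.4 and 12.7 in *Etv5*-KO (log2 fold change −2.02, standard error 0.47, adjusted p = 0.00122). The ligand *Fgf5* had 190.1, 179 and 103 in RGd2 against 43.5 and 106 in *Etv5*-KO (log2 fold change −1.08, standard error 0.33, adjusted p = 0.0116), so that knockout replicate 18 lay within the RGd2 range. Without replicate 17 its value was −0.59 with an adjusted p of 0.301, and without RGd2 replicate 22 it was −0.93 with an adjusted p of 0.051.

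The de novo DNA methyltransferases were both lower. *Dnmt3a* had 14422, 14770.4 and 14289.9 in RGd2 against 8564 and 9867 in *Etv5*-KO (log2 fold change −0.65, standard error 0.14, adjusted p = 0.000385). *Dnmt3b* had 13899, 13012 and 9711 in RGd2 against 7172 and 8463 in *Etv5*-KO (log2 fold change −0.64, standard error 0.14, adjusted p = 0.000538). In contrast, their regulatory partner *Dnmt3l* was higher, with 9775, 10092 and 7844 in RGd2 against 16326 and 19309 in *Etv5*-KO (log2 fold change 0.95, standard error 0.15, adjusted p = 7.47e-06). *Dusp14*, a phosphatase included among the formative genes, was higher too, with 73.2, 91.4 and 94.1 in RGd2 against 414 and 461 in *Etv5*-KO (log2 fold change 2.34, standard error 0.19, adjusted p = 2.47e-12). *Sox3*, *Zic2*, *Grhl2*, *Cdh2* and *Fgf15* were not called, with log2 fold changes of −0.34, 0.19, 0.13, 0.05 and 0.26.

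Promoters of 3 genes are printed to show where letters like those bound by PEA3 factors stand in a gene that was higher in the knockout (*Nanog*) and in genes that were lower (*Otx2*, *Nphs1*). Of the lower genes, *Otx2* had a call at N16h that was lost with some single libraries left out. They are the 250 bases before the gene's start in RefSeq on GRCm38.p6, with AGGAAG or CGGAAG on either strand in capitals. *Otx2* is at chr14:48667645-48667894 (minus strand), *Nphs1*, for nephrin, at chr7:30459808-30460057 (plus strand) and *Nanog* at chr6:122707239-122707488 (plus strand).
Otx2: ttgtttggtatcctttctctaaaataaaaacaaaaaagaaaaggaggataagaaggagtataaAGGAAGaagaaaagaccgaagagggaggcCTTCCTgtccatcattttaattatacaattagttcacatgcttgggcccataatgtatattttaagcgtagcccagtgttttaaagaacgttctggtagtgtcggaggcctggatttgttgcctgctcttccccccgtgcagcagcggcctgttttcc
Nphs1: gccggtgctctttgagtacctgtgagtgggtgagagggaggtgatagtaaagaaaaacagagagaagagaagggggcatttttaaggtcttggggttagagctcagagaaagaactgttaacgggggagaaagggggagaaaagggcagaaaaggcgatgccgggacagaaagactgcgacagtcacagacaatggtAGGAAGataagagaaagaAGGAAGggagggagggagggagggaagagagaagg
Nanog: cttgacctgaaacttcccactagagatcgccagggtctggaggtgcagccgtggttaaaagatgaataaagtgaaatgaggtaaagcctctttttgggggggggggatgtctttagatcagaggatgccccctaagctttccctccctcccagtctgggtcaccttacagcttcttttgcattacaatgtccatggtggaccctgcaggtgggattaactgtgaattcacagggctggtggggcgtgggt
The *Otx2* and *Nphs1* windows hold 2 such matches each and the *Nanog* window 0. These 3 examples run opposite to the shares that follow, in which genes called lower had a match less often. A window with a match was present for 51.3% of the 9934 expressed genes in the table, for 48.6% of 3025 called higher, for 43.7% of 309 called lower and for 52.9% of 6600 not called. The longer motif CCGGAAG was held by 16.2% of expressed genes, 13.2% of those higher, 7.44% of those lower and 17.9% of those not called, and by 6.91% of all 32851 windows. A gene counted if any of its windows had a match, so shares of genes and of windows are not on the same unit. AGGAAG and CGGAAG were chosen after CCGGAAG had been found for only 2 of the 83 named genes with a window, and CCGGAAG contains CGGAAG. A match is a description of letters and not of binding.

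The effect of the knockout was next set beside its effect in 2i, where 3 *Etv5*-KO clones and 3 RGd2 libraries were available. In 2i, 892 of 13201 genes were higher (6.76%) and 3747 lower (28.4%) in the knockout. The difference of the effects was tested as a contrast of contrasts, and 5008 of 13946 genes differed (35.9%), 4915 with an effect above that in 2i (35.2%) and 93 below (0.667%). The 2 effects share no library. The median effect of all genes was −0.20 in 2i and 0.24 at N16h, and with TMM the count of genes that differed was 1788. With the clonal line as a block, since the same lines were sampled in 2i and at N16h, it was 3208. Without RGd2 2i replicate 31 it was 2974, without RGd2 2i replicate 33 it was 7787 and without *Etv5*-KO N16h replicate 18 it was 2408. Of the 24 naive genes, 19 had an effect above that in 2i and 0 below.

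*Prdm14* had a log2 fold change of −0.23 in 2i and of 1.80 at N16h, a difference of 2.04 (adjusted p = 1.41e-10). *Nanog* had 0.14 in 2i, a difference of 1.66 (adjusted p = 1.13e-10), and *Klf5* had −0.78 in 2i, a difference of 1.97 (adjusted p = 2e-08). These 3 genes and *Tbx3* kept an adjusted p under 0.05 with TMM, where the differences were 1.61, 1.22, 1.53 and 1.66. *Klf4*, *Tfcp2l1*, *Pou5f1* and *Sox2* did not keep it, at 0.31, 0.32, 0.26 and 0.45. Formative genes went in both directions. The effect on *Otx2* changed sign, from 1.56 in 2i, where its levels were 403, 351 and 303 in RGd2 and 1032, 1143 and 998 in *Etv5*-KO, to −0.41 at N16h (difference −1.96, adjusted p = 1.24e-10). *Lef1* was lower in both conditions, by more in 2i (−4.16, difference 1.84, adjusted p = 1.8e-06), and for *Pou3f1* and *Dnmt3a* the differences of 0.12 and 0.25 did not pass the test (adjusted p = 0.888 and 0.304).

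The effect on *Etv4* was smaller at N16h than in 2i (1.97 in 2i, difference −1.18, adjusted p = 1.48e-05). In RGd2 *Etv4* stood at 120.0, 116 and 105 normalized counts in 2i, and in *Etv5*-KO at 486, 387 and 484, below every library at N16h. The paired symbols of the plot of effects in 2i and at N16h show which genes changed sides of 0.

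**Figure D3:**
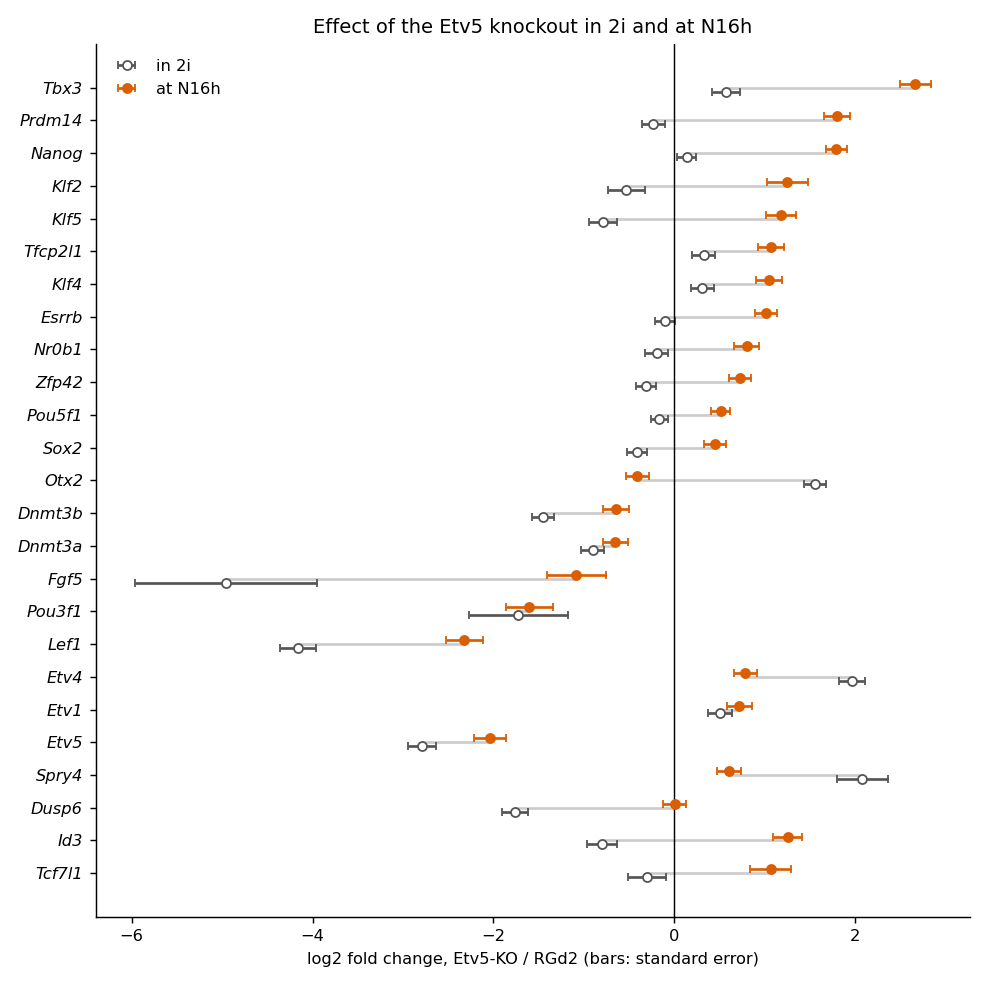
Log2 fold changes of *Etv5*-KO over RGd2 (x axis, spike-in scaling) of 25 genes in 2i (open circles) and at N16h (filled circles), with bars for the standard error. *Klf5*, *Prdm14*, *Sox2* and *Id3*, among others, lie left of 0 in 2i and right of 0 at N16h, and *Otx2* lies the other way round, at 1.56 and −0.41.

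Genes of FGF and ERK signalling were split. Of 12 FGF ligands, receptors and adaptors expressed, 5 were higher and 3 lower (1 and 4 with TMM), against 29.3% and 3.6% of all genes (17.1% and 12% with TMM), with a median of 0.27 beside 0.24. Here the count of higher genes was 3 without RGd2 replicate 23, 2 without RGd2 replicate 24 and 1 without *Etv5*-KO replicate 18, and the count of lower genes was 1 without RGd2 replicate 22 or *Etv5*-KO replicate 17. The receptor *Fgfr1* had 2436, 2156 and 2178 in RGd2 against 3509.9 and 3762 in *Etv5*-KO (log2 fold change 0.69, standard error 0.13, adjusted p = 5.08e-05) and was the member called higher with both scalings. The ligand *Fgf1* had 294, 277 and 177 in RGd2 against 63.4 and 77.5 in *Etv5*-KO (log2 fold change −1.83, standard error 0.40, adjusted p = 0.000588). *Fgf4*, the main FGF of ESCs, was called higher (log2 fold change 0.40, standard error 0.13, adjusted p = 0.0157), but not with TMM (0.17), without RGd2 replicate 24 (0.33, adjusted p = 0.0886) or without *Etv5*-KO replicate 18 (0.27, adjusted p = 0.316).

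Of 19 ERK feedback inhibitors, 6 were higher and 1 lower (4 and 3 with TMM), against 29.3% and 3.6% of all genes (17.1% and 12% with TMM), with a median of 0.20 beside 0.24. The count of lower genes was 0 without *Etv5*-KO replicate 17. *Spry4*, a Sprouty inhibitor induced by ERK, had 2144, 1955 and 2301 in RGd2 against 3098 and 3385 in *Etv5*-KO (log2 fold change 0.60, standard error 0.13, adjusted p = 0.000735). *Spred1* (0.73, adjusted p = 2.37e-05) and the Ras GTPase-activating protein *Rasa3* (0.73, adjusted p = 0.000326) were higher as well. *Dusp6*, the ERK phosphatase commonly read as a gauge of ERK output, had 2381, 2243 and 2256 in RGd2 against 2174 and 2427 in *Etv5*-KO, a log2 fold change of 0.00 (adjusted p = 0.987) whose sign depended on the setting, with −0.23 under TMM. *Dusp1* was lower (log2 fold change −0.75, standard error 0.18, adjusted p = 0.00133), with −0.56 and an adjusted p of 0.0701 without *Etv5*-KO replicate 17. Among 16 immediate early and Myc family genes, 5 were higher and 0 lower (3 and 1 with TMM), against 29.3% and 3.6% of all genes. With *Etv5*-KO replicate 18 left out, 3 genes were higher. *Egr1*, an immediate early zinc finger factor, was at a low level in every library, with 10.4, 13.6 and 7.16 in RGd2 against 72.5 and 50.7 in *Etv5*-KO (log2 fold change 2.49, standard error 0.35, adjusted p = 6.22e-07). *Junb* was higher (1.13, adjusted p = 0.00139), while *Myc* was at 0.35 and did not pass the test (adjusted p = 0.104).

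Of 16 Notch and Id genes expressed, 12 were higher and 3 lower (8 and 3 with TMM), against 29.3% and 3.6% of all genes (17.1% and 12% with TMM), with a median of 0.60. For these genes the count of higher genes was 7 without *Etv5*-KO replicate 18. All 4 Id genes, which encode inhibitors of basic helix-loop-helix factors, were higher with both scalings. *Id4* had 17, 9.92 and 7.16 in RGd2 against 72.5 and 73.2 in *Etv5*-KO (log2 fold change 2.65, standard error 0.26, adjusted p = 2.58e-10). *Id2* had 43.6, 47 and 45 in RGd2 against 172 and 175 in *Etv5*-KO (log2 fold change 1.93, standard error 0.28, adjusted p = 1.33e-06). *Id3* had 314, 366 and 265 in RGd2 against 712 and 799 in *Etv5*-KO (log2 fold change 1.25, standard error 0.16, adjusted p = 1.14e-07). Groups were separate for each of them, at low levels for *Id4* and *Id2*. The Hairy-related repressor *Hey1* had 8.87, 6.79 and 9.21 in RGd2 against 67.2 and 50.7 in *Etv5*-KO (log2 fold change 2.85, standard error 0.29, adjusted p = 5.03e-10). *Hes1* had 78.4, 70 and 94.1 in RGd2 against 142 and 137 in *Etv5*-KO (log2 fold change 0.81, standard error 0.18, adjusted p = 0.000677). The ligand *Dll1* was lower, with 929.6, 848 and 542 in RGd2 against 348 and 465 in *Etv5*-KO (log2 fold change −0.93, standard error 0.21, adjusted p = 0.000813), and so was *Hes6* (−0.75, adjusted p = 0.000288). *Rbpj*, the DNA-binding partner of Notch, had 12766, 12629.5 and 12327 in RGd2 against 19050.1 and 19748 in *Etv5*-KO (log2 fold change 0.63, standard error 0.22, adjusted p = 0.0337). Its libraries were far apart, yet the call was lost with TMM (0.39, adjusted p = 0.223), with DESeq2 (adjusted p = 0.105) and without any single library of the 5 (adjusted p from 0.0624 to 0.172). It was kept in 4 of 12 settings, the fit of only the 5 libraries compared among them, and the lowest adjusted p was 2.86e-06.

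Of 11 Wnt/beta-catenin genes, 2 were higher and 2 lower (1 and 4 with TMM), against 29.3% and 3.6% of all genes (17.1% and 12% with TMM). With RGd2 replicate 22 or RGd2 replicate 23 or RGd2 replicate 24 or *Etv5*-KO replicate 18 left out, 1 gene was higher. *Tcf7l1*, which encodes the repressor TCF3, was higher, with 814, 698 and 548 in RGd2 against 1312 and 1569.8 in *Etv5*-KO (log2 fold change 1.07, standard error 0.23, adjusted p = 0.000377), the opposite direction to *Lef1*. The Wnt deacylase *Notum* was lower (−0.71, adjusted p = 0.00228), and *Axin2* was at 0.22 (adjusted p = 0.332).

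Of 27 Nodal, activin and BMP genes, 14 were higher and 2 lower (8 and 4 with TMM), against 29.3% and 3.6% of all genes (17.1% and 12% with TMM). The count of higher genes was 7 without *Etv5*-KO replicate 18, and the count of lower genes was 1 without any 1 of the 5 libraries. The activin antagonist *Fst* had 60.6, 60.1 and 69.6 in RGd2 against 256 and 241 in *Etv5*-KO (log2 fold change 1.98, standard error 0.26, adjusted p = 1.64e-07). The Nodal antagonist *Lefty2* had 363, 361 and 358 in RGd2 against 659.5 and 916 in *Etv5*-KO (log2 fold change 1.13, standard error 0.20, adjusted p = 2.31e-05). The ligand *Bmp7* had 54, 53.3 and 66.5 in RGd2 against 147 and 151 in *Etv5*-KO (log2 fold change 1.37, standard error 0.23, adjusted p = 1.46e-05). Both antagonists and the ligand had knockout libraries well above RGd2. *Skil*, which encodes a SMAD co-repressor, was lower, with 5468, 5377 and 5099 in RGd2 against 2811 and 3298 in *Etv5*-KO (log2 fold change −0.80, standard error 0.13, adjusted p = 4.99e-06). In the LIF/STAT3 list, 6 of 14 were higher and 3 lower with both scalings, against 29.3% and 3.6% of all genes (17.1% and 12% with TMM). *Stat3* was at 0.59 (adjusted p = 9e-04) and *Jak2* at 1.0 (adjusted p = 9.83e-05), both higher. *Socs3*, a feedback inhibitor induced by STAT3, was lower, with 48.8, 46 and 50.1 in RGd2 against 17.6 and 9.86 in *Etv5*-KO (log2 fold change −1.81, standard error 0.38, adjusted p = 0.000291), as was *Socs2* (−0.58, adjusted p = 0.00068).

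Among chromatin genes, 9 of 21 members of the H3K4 methyltransferase complexes were higher and 0 lower (6 and 1 with TMM), against 29.3% and 3.6% of all genes (17.1% and 12% with TMM). With *Etv5*-KO replicate 18 left out, 5 genes were higher. The catalytic subunit *Setd1b* had 221, 209 and 196 in RGd2 against 467 and 466 in *Etv5*-KO (log2 fold change 1.16, standard error 0.17, adjusted p = 1.75e-06), and the shared subunits *Wdr5* (0.78, adjusted p = 1.06e-06) and *Rbbp5* (0.81, adjusted p = 8.12e-07) were higher too. Of 9 DNA methylation genes, 5 were higher and 2 lower with both scalings (against 29.3% and 3.6% of all genes (17.1% and 12% with TMM)), the lower being *Dnmt3a* and *Dnmt3b*. For these genes the count of higher genes was 3 without *Etv5*-KO replicate 18. *Tet2*, which oxidizes methylcytosine, had 8609, 8145 and 8661 in RGd2 against 16417 and 16643 in *Etv5*-KO (log2 fold change 0.96, standard error 0.13, adjusted p = 3.33e-07). *Dnmt1*, the maintenance methyltransferase, was at 0.10 (adjusted p = 0.61) and *Tet1* at 0.11 (adjusted p = 0.64). Replication-dependent histones had 1 higher and 5 lower of 60 (0 and 17 with TMM), against 29.3% and 3.6% of all genes (17.1% and 12% with TMM). The largest changes were those of the testis variants. *Hist1h2ba* had 121, 106 and 116 in RGd2 against 14.5 and 16.9 in *Etv5*-KO (log2 fold change −2.85, standard error 0.36, adjusted p = 9.71e-08). *Hist1h2aa* had 249, 315 and 222 in RGd2 against 38.9 and 38.7 in *Etv5*-KO (log2 fold change −2.76, standard error 0.26, adjusted p = 1.13e-10). Histone genes are close copies, and how the unique-match counting divides their reads was not tested.

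Basement membrane and adhesion genes were higher or not called. Of 21 expressed, 12 were higher and 0 lower (11 and 1 with TMM), against 29.3% and 3.6% of all genes (17.1% and 12% with TMM), with a median of 0.78. The basement membrane linker *Nid1* had 2703, 2510.1 and 2655 in RGd2 against 7293 and 7207 in *Etv5*-KO (log2 fold change 1.47, standard error 0.15, adjusted p = 5.94e-10). The perlecan gene *Hspg2* had 5101, 4396 and 2950.1 in RGd2 against 9324 and 9709 in *Etv5*-KO (log2 fold change 1.20, standard error 0.18, adjusted p = 1.89e-06). The integrin subunit *Itgb5* had 407, 429 and 389 in RGd2 against 1014 and 1066 in *Etv5*-KO (log2 fold change 1.35, standard error 0.13, adjusted p = 1.97e-10). In each of the 3 the groups were separate. *Itgb1* was at −0.29 and did not pass the test (adjusted p = 0.124), and with TMM it was lower (−0.51). *Lama1* was at 1.01 without being called (adjusted p = 0.153).

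Of 22 calcium signalling genes, 10 were higher and 0 lower (7 and 6 with TMM), against 29.3% and 3.6% of all genes (17.1% and 12% with TMM). Here the count of higher genes was 5 without *Etv5*-KO replicate 18, and the count of lower genes was 3 without RGd2 replicate 24. The calcium release channel *Ryr2* had 496, 523 and 578 in RGd2 against 1347 and 1362 in *Etv5*-KO (log2 fold change 1.35, standard error 0.13, adjusted p = 2.22e-10). The pump *Atp2a3* had 93.2, 99.2 and 73.7 in RGd2 against 239 and 238 in *Etv5*-KO (log2 fold change 1.41, standard error 0.21, adjusted p = 1.2e-06). Of 35 cell cycle genes, 9 were higher and 2 lower (3 and 13 with TMM), against 29.3% and 3.6% of all genes (17.1% and 12% with TMM), and their median of 0.07 was below the 0.24 of all genes. The count of higher genes was 5 without RGd2 replicate 23, 4 without RGd2 replicate 24 and 3 without *Etv5*-KO replicate 18, and the count of lower genes was 1 without RGd2 replicate 22 or RGd2 replicate 23 or *Etv5*-KO replicate 17 or *Etv5*-KO replicate 18. The exception in size was *Ccnd2*, for cyclin D2, with 2036, 2257 and 2102 in RGd2 against 592 and 537 in *Etv5*-KO (log2 fold change −1.92, standard error 0.34, adjusted p = 2.76e-05). *Ccnd3* was higher (0.66, adjusted p = 0.000699), and so was *Gadd45b* (1.42, adjusted p = 9.45e-10).

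In metabolism, 6 of 24 glycolysis genes were higher and 2 lower (3 and 4 with TMM), against 29.3% and 3.6% of all genes (17.1% and 12% with TMM). In this list the count of higher genes was 3 without *Etv5*-KO replicate 18, and the count of lower genes was 1 without RGd2 replicate 22 or RGd2 replicate 23 and 0 without *Etv5*-KO replicate 17. *Pfkm*, the muscle isoform of phosphofructokinase, had 1921, 2025 and 2030.2 in RGd2 against 4466 and 4894 in *Etv5*-KO (log2 fold change 1.23, standard error 0.13, adjusted p = 4.98e-10). The glucose transporter *Slc2a3* had 20793, 19498 and 16556 in RGd2 against 38785 and 40698 in *Etv5*-KO (log2 fold change 1.07, standard error 0.14, adjusted p = 8.08e-08). *Slc2a1*, for the transporter GLUT1, was lower, at −0.42 (adjusted p = 0.021). Beside the same shares of all genes, cholesterol synthesis genes had 2 higher and 4 lower of 23 with the spike-ins and 2 and 13 with TMM, with a median of −0.06. For these genes the count of higher genes was 1 without *Etv5*-KO replicate 18, and the count of lower genes was 0 without RGd2 replicate 22 or *Etv5*-KO replicate 17 and 2 without RGd2 replicate 23. Cytosolic ribosomal protein genes had 3 higher and 0 lower of 87 (0 and 8 with TMM) and a median of 0.10, against 29.3% and 3.6% of all genes (17.1% and 12% with TMM). Nuclear genes of oxidative phosphorylation had 11 higher and 0 lower of 76 (1 and 5 with TMM), and mitochondrial transcripts 3 higher of 9 (0 with TMM), beside these same shares of all genes. Germ cell genes had 1 higher and 2 lower of 18 (1 and 5 with TMM), again beside 29.3% and 3.6% of all genes (17.1% and 12% with TMM). Here the count of lower genes was 0 without *Etv5*-KO replicate 17 and 1 without *Etv5*-KO replicate 18. The plot of gene lists sets all members against the median of all genes.

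**Figure D4:**
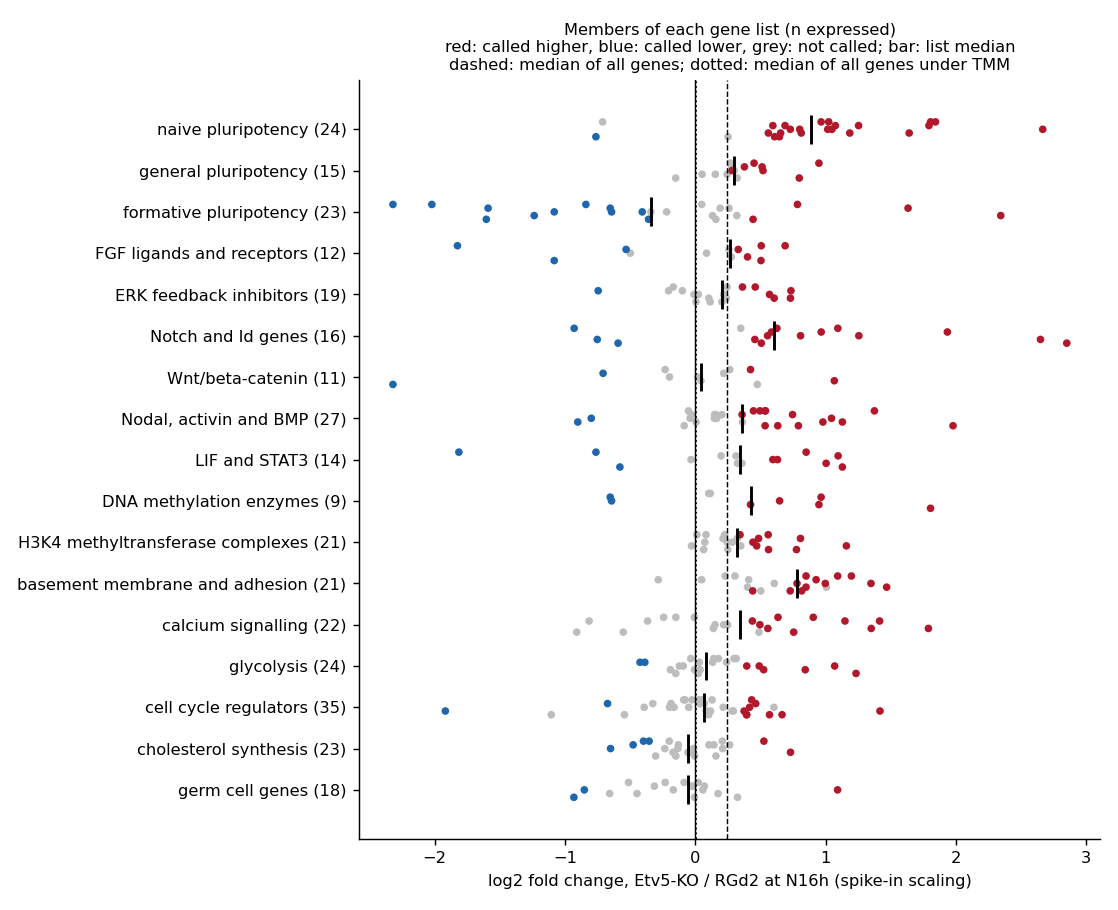
Log2 fold change of *Etv5*-KO over RGd2 at N16h (x axis) for each expressed member of 17 gene lists (y axis), in red where called higher, blue where called lower and grey where not called, with the list median as a bar. Naive pluripotency (median 0.89) and basement membrane genes (0.78) lie right of the dashed line at 0.24, the median of all genes, and formative genes lie left of it (−0.34).

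Genes that led the comparison by fold were near silent in RGd2. *Ly6a*, which encodes the GPI-anchored surface protein SCA-1, had 0.74, 3.66 and 4.09 in the RGd2 libraries and 444 and 361 in the *Etv5*-KO libraries (log2 fold change 7.10, standard error 0.38, adjusted p = 1.22e-17). It was also at 954, 1037 and 780.1 in the knockout in 2i, where RGd2 had 25.1, 20.6 and 20.2. The receptor gene *Ffar3* had 6.66, 6.27 and 7.16 in RGd2 against 335 and 335 in *Etv5*-KO (log2 fold change 5.64, standard error 0.41, adjusted p = 2.61e-13). The tyrosine phosphatase gene *Ptpn22* had 7.4, 2.61 and 5.1 in RGd2 against 217 and 261 in *Etv5*-KO (log2 fold change 5.59, standard error 0.56, adjusted p = 5.43e-10). These genes were barely detected in RGd2 and well expressed in the knockout. *Bcl2l15* had 0.74, 2.09 and 1.02 in RGd2 against 97.7 and 120.4 in *Etv5*-KO (log2 fold change 6.18, standard error 0.63, adjusted p = 7.1e-10). *1700016D06Rik*, with at most 3 counts in each RGd2 library, was at least 23.8-fold higher in the knockout. Genes among the leaders by p-value were expressed at higher levels. *Calcoco2*, for the autophagy receptor NDP52, had 766, 792 and 807 in RGd2 against 8133 and 9379.8 in *Etv5*-KO (log2 fold change 3.47, standard error 0.15, adjusted p = 3.58e-20). *Zc3hav1*, for an antiviral RNA-binding protein, had 655, 647 and 821 in RGd2 against 3936 and 3966 in *Etv5*-KO (log2 fold change 2.48, standard error 0.13, adjusted p = 6.9e-18). *Nrp2*, for the receptor neuropilin 2, had 242, 225 and 149 in RGd2 against 1512 and 1463 in *Etv5*-KO (log2 fold change 2.84, standard error 0.17, adjusted p = 4.12e-16).

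Among genes that were lower, those leading by p-value beside *Etv5* and *Lef1* were *Nphs1*, *Vrtn* and *Kif21a*. *Vrtn* had 482, 451 and 251 in the RGd2 libraries and 16.8 and 14.8 in the *Etv5*-KO libraries (log2 fold change −4.64, standard error 0.36, adjusted p = 8.58e-13). *Nphs1*, which encodes nephrin, had 1793, 1564 and 1309.8 in the RGd2 libraries and 271 and 358 in the *Etv5*-KO libraries (log2 fold change −2.31, standard error 0.17, adjusted p = 3.51e-13). *Kif21a*, a kinesin gene, had 496, 477 and 385 in the RGd2 libraries and 77.9 and 88.7 in the *Etv5*-KO libraries (log2 fold change −2.44, standard error 0.21, adjusted p = 7.51e-12). In all 3 the RGd2 replicate 24 was the lowest of its group and was still above both knockout libraries by a wide margin. The effect on *Kif21a* in 2i was small (−0.15, difference −2.29, adjusted p = 4.03e-08), and that on *Nphs1* was larger there (−4.55, difference 2.24, adjusted p = 1.38e-09).

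The remaining leaders by fold were *Usp17lc*, *Usp17lb*, *Zscan4e* and the unnamed transcripts *Gm7957* and *Gm5662*. *Zscan4* and *Usp17l* genes are marks of the rare 2-cell-like state that ESC cultures enter and leave, and they form families of near-identical copies, so the division of reads among them is uncertain. *Zscan4d* had 484, 403 and 34.8 in the RGd2 libraries and 9.92 and 5.63 in the *Etv5*-KO libraries (log2 fold change −5.31, standard error 0.78, adjusted p = 1.29e-06). *Zscan4c* had 413, 396 and 58.3 in RGd2 against 11.5 and 8.45 in *Etv5*-KO (log2 fold change −4.86, standard error 0.65, adjusted p = 2.59e-07). *Usp17lc* had 82.8, 66.9 and 13.3 in RGd2 and 0 in both knockout libraries, at least 24.7-fold below the RGd2 mean. Against the clonal replicate 24 alone, the last of the RGd2 values, the bound would be smaller.

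RGd2 replicate 24 stood apart from the parental libraries for these genes. The summed level of the 6 listed markers of 2-cell-like cells was 50.1 and 47.4 CPM in the parental replicates 22 and 23, 5.85 in the clonal replicate 24, and 1.40 and 0.72 in *Etv5*-KO. *Tcstv3* was at 0 counts in replicate 24 and in both knockout libraries. The 4 markers expressed were lower in *Etv5*-KO with or without replicate 24. As that library had the lowest RGd2 levels, leaving it out could only widen the gap. No setting left out both parental libraries. The same order of lines was seen in 2i, where *Zscan4d* was at 453, 396 and 36.3 in RGd2, the last being the clonal line, and at 9.06, 11 and 8.83 in *Etv5*-KO. *Rbpj*-KO clones, which keep *Etv5*, had 6.31, 7.16 and 10.1 in 2i and 4.96, 15 and 16.9 at N16h. Only the parental libraries were not from a clone, and the clonal RGd2 line was the only clone without a knockout. With no further clone of that kind, the knockout and clonal derivation cannot be told apart for these genes.

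**Figure D5:**
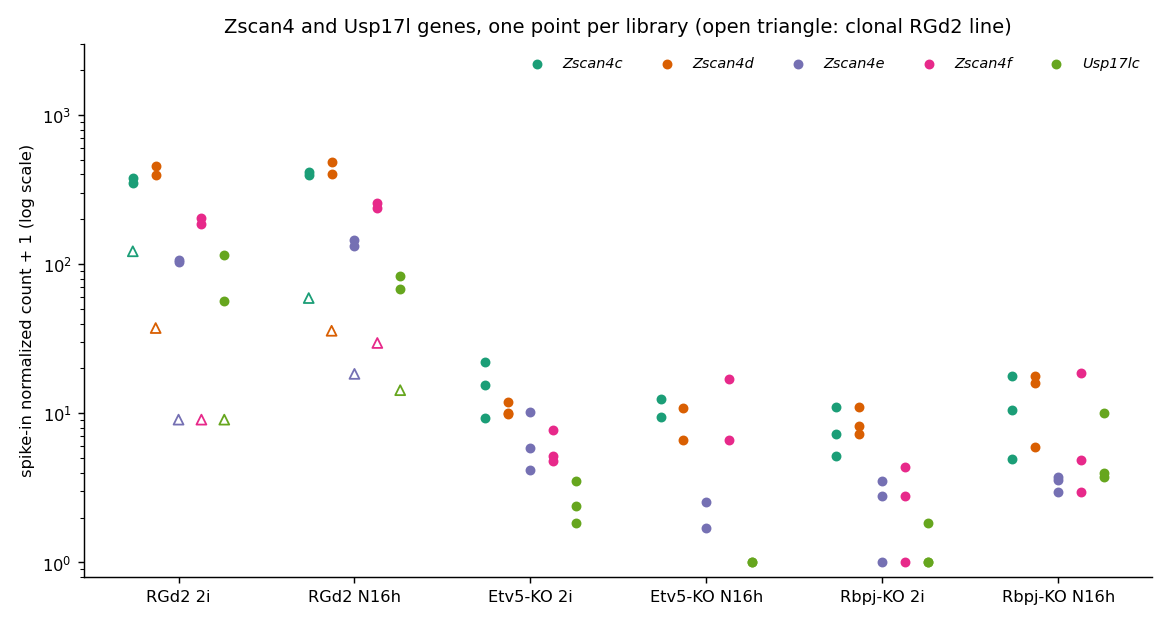
Spike-in normalized counts + 1 (y axis, log scale) of 5 genes in each library of RGd2, *Etv5*-KO and *Rbpj*-KO in 2i and at N16h, with the clonal RGd2 line as open triangles. At N16h *Zscan4d* lies at 484 and 403 in the parental line, at 34.8 in the clonal line and at or below 16.9 in every knockout clone.

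Markers of other cell types were examined over whole lists. ES cell markers summed to between 2978 and 3121 CPM in RGd2 and to 4218 and 4437 CPM in *Etv5*-KO. Of 8 such markers 7 were higher (6 with TMM) and 0 lower, against 29.3% and 3.6% of all genes (17.1% and 12% with TMM). Mesendoderm markers had 0 of 5 expressed, with sums between 0.964 and 1.54 CPM in the 5 libraries. Fibroblast markers had 1 of 6 expressed (*Thy1*), with sums of 1.62 to 2.51 CPM in RGd2 and 3.27 and 4.01 CPM in *Etv5*-KO. Primitive endoderm markers had 3 of 7 expressed and none called, with sums of 3.51 to 10.95 CPM in RGd2 and of 4.01 and 6.41 CPM in *Etv5*-KO. Of 6 trophectoderm markers 2 were expressed and both were higher with both scalings, beside the same shares of all genes. The defining markers *Cdx2* and *Elf5* had at most 0.26 CPM in any library. *Gata3* had 34.8, 29.8 and 25.6 in RGd2 against 89.3 and 102 in *Etv5*-KO (log2 fold change 1.66, standard error 0.38, adjusted p = 0.000884). *Eomes* had 174, 126 and 164 in RGd2 against 293 and 374 in *Etv5*-KO (log2 fold change 1.12, standard error 0.23, adjusted p = 0.000209). Of 5 neural markers 3 were expressed, with *Pax6* lower (515, 494 and 236 in RGd2 against 139.7 and 170.4 in *Etv5*-KO, log2 fold change −1.43, standard error 0.26, adjusted p = 4.07e-05) and *Tubb3* higher (0.72, adjusted p = 3.36e-05). What part such cells have in the bulk values was not tested, and in bulk RNA fewer cells of a type and less RNA per cell cannot be told apart.

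*Rbpj*-KO clones at N16h gave a direct comparison between knockouts in which no control library enters the fold change. The spread behind the p-values still came from all libraries of the series, controls included. Of 13470 genes, 2506 differed (18.6%), 1716 higher (12.7%) and 790 lower (5.86%) in *Etv5*-KO. Without *Etv5*-KO replicate 17 the number was 1569 and without replicate 18 it was 1188. Of the 24 naive genes 16 were higher in *Etv5*-KO than in *Rbpj*-KO and 1 was lower, against the same 12.7% and 5.86%. *Tbx3* stood at 4547 and 4939 in *Etv5*-KO and at 2158, 2158 and 2231 in *Rbpj*-KO (log2 fold change 1.12, adjusted p = 3.8e-06). *Nanog* stood at 15563 and 15438 against 12068, 11635 and 11364 (0.41, adjusted p = 0.0112), a call that was lost without *Etv5*-KO replicate 17 (0.40, adjusted p = 0.0771) or 18 (0.41, adjusted p = 0.0819). *Klf2*, *Klf5*, *Esrrb*, *Tfcp2l1*, *Prdm14*, *Nr0b1* and *Zfp42* each lost the call in this comparison without at least 1 library. *Klf4* did not differ by the test, at 0.19 with a standard error of 0.14 (adjusted p = 0.447).

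Formative genes were 7 higher and 5 lower of 23, against 12.7% and 5.86% of all genes. *Lef1* was at 540.5 and 763 in *Etv5*-KO and at 178, 219 and 219 in *Rbpj*-KO, higher in the former (1.67, adjusted p = 4.28e-08), with RGd2 between 2659 and 3711. *Pou3f1*, *Otx2* and *Fgf5* had differences of 0.30 ± 0.27, 0.12 ± 0.13 and 0.08 ± 0.34 (standard error), and none of them passed the test (adjusted p from 0.527 to 0.924). The repressor genes *Hes1* (−2.11, adjusted p = 7.65e-12) and *Hey1* (−1.58, adjusted p = 1.54e-06) and the receptor gene *Nrp2* (−1.46, adjusted p = 1.69e-08) were lower in *Etv5*-KO. *Ly6a* was 5.1 higher on the log2 scale (adjusted p = 1.1e-14), with 8.93, 4.1 and 22.1 in *Rbpj*-KO. *Vrtn*, at 39.7, 35.5 and 36.3 in *Rbpj*-KO, differed from *Etv5*-KO at the threshold (−1.24, adjusted p = 0.05), a call lost with any 1 library of these groups left out (adjusted p from 0.0835 to 0.27).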

How the data were processed

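RNA-seq libraries of mouse ESCs were made after ribosomal RNA depletion with a directional kit, with ERCC spike-ins added. The authors used Trim Galore for adapter removal and TopHat2 for alignment to a GRCm38/mm10 genome that held the ERCC sequences, guided by Gencode M14, and featureCounts for strand-specific counting of unique primary matches (tool names also in the submitters' processing notes, versions not given in the sources used here). The deposited values were raw counts per gene and per spike-in for 32 libraries. IDs without a symbol (193) held 0.027% to 0.035% of counts in the libraries compared.

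All libraries entered a single edgeR model (version 4.0.16, R 4.3.3), with a coefficient per group and size factors as the median of ratios over 52 of 92 spike-ins. The default expression filter left 19037 genes, with Benjamini-Hochberg adjustment over all of them. A gene was called at an adjusted p under 0.05 and a mean CPM of at least 1 in either group. Bounds on folds took 3 counts per library as the floor. Alternatives used TMM, DESeq2 1.42.0, other filters and left-out libraries. The fit was tested on simulated data. Totals were 23096785 to 46695457 counts, and intervals from counts would cover counting error only.

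Groups came from the labels, which give *Etv5*-KO at N16h fewer libraries than RGd2, where the methods text names the RGd2 group as the smaller. Genes named were *Etv5*, *Etv4*, *Etv1*, a core set, up to 3 non-overlapping called genes per list and direction, and the 5 leading per direction by fold and by p-value. Beyond that rule, *Axin2*, *Cdh2*, *Ddx3y*, *Dnmt1*, *Dppa3*, *Eif2s3y*, *Fgf15*, *Grhl2*, *Itgb1*, *Lama1*, *Manba*, *Myc*, *Nr5a2*, *Sall2*, *Slc2a1*, *Sox11*, *Sox3*, *Stat3*, *Tcf15*, *Tcl1*, *Tet1*, *Uty* and *Zic2* were chosen after their values were seen. Some results that the rule would name are not reported here. The gene lists were chosen with earlier results of these data known, and so was the comparison itself. Guide sequences came from the supplementary oligonucleotide list, with positions from GENCODE M21 on GRCm38, and promoters from RefSeq (83 of 127 named genes matched). Figures were drawn with matplotlib 3.10.9 in Python 3.11.15.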

Additional observations from a re-analysis of the deposited data

Results flagged for a closer look

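The effect of the *Etv5* knockout differed between N16h and 2i for 31 of the 45 genes compared by name, and 27 of the differences were above 0 and 4 below. Among all 13946 genes 35.9% differed, 35.2% above and 0.667% below. Some of the named genes were picked for their large effect at N16h, so their share is not that of a neutral set. Each value is the log2 fold change at N16h minus that in 2i, from the edgeR quasi-likelihood contrast of contrasts with Benjamini-Hochberg adjustment over all genes. For *Etv5* itself it was 0.75 (adjusted p = 0.0107). For naive pluripotency factors the differences were *Tbx3* 2.09 (adjusted p = 5.92e-09), *Prdm14* 2.04 (adjusted p = 1.41e-10), *Klf5* 1.97 (adjusted p = 2e-08), *Klf2* 1.78 (adjusted p = 2.55e-05), *Nanog* 1.66 (adjusted p = 1.13e-10), *Esrrb* 1.12 (adjusted p = 2.37e-06), *Zfp42* 1.04 (adjusted p = 1.24e-05), *Nr0b1* 0.99 (adjusted p = 0.000129), *Tfcp2l1* 0.75 (adjusted p = 0.00415) and *Klf4* 0.74 (adjusted p = 0.00433). For general pluripotency factors they were *Sox2* 0.86 (adjusted p = 0.000242) and *Pou5f1* 0.68 (adjusted p = 0.00028), and for formative genes *Fgf5* 3.87 (adjusted p = 0.01), *Lef1* 1.84 (adjusted p = 1.8e-06) and *Dnmt3b* 0.81 (adjusted p = 0.00124). Signalling genes had *Egr1* 2.46 (adjusted p = 0.0493), *Id3* 2.05 (adjusted p = 1.18e-08), *Dusp6* 1.76 (adjusted p = 7.68e-09), *Tcf7l1* 1.37 (adjusted p = 0.00104) and *Hes1* 1.27 (adjusted p = 7.53e-05). Leading genes of the comparison at N16h had *1700016D06Rik* 2.77 (adjusted p = 0.00581), *Nrp2* 2.5 (adjusted p = 6.2e-11), *Nphs1* 2.24 (adjusted p = 1.38e-09), *Ly6a* 1.74 (adjusted p = 0.0194), *Zc3hav1* 1.45 (adjusted p = 3.28e-08) and *Calcoco2* 1.41 (adjusted p = 1.25e-06). A difference above 0 need not mean a higher level at N16h. *Etv5*, *Fgf5*, *Lef1*, *Dnmt3b* and *Nphs1* were lower in the knockout at N16h, by less than in 2i. The 4 below 0 were *Kif21a* −2.29 (adjusted p = 4.03e-08), *Otx2* −1.96 (adjusted p = 1.24e-10), *Spry4* −1.48 (adjusted p = 0.000874) and *Etv4* −1.18 (adjusted p = 1.48e-05). With TMM scaling the differences of *Etv5*, *Klf4*, *Tfcp2l1*, *Pou5f1*, *Sox2*, *Fgf5*, *Dnmt3b*, *Egr1*, *Ly6a* and *1700016D06Rik* did not pass the test. With the clonal line as a block only that of *Egr1* was lost among the 31 (adjusted p = 0.0959). The *Egr1* difference was lost in 10 of 13 alternatives, with 1.68 (adjusted p = 0.422) without RGd2 2i replicate 32. With 1 library left out, the test was also missed for *Etv5* (0.59, adjusted p = 0.08, without *Etv5*-KO replicate 17), for *Fgf5* (3.09, adjusted p = 0.063, without *Etv5*-KO replicate 18 and 3.05, adjusted p = 0.115, without RGd2 2i replicate 31) and for *Ly6a* (1.32, adjusted p = 0.0863, without RGd2 replicate 22 and 1.62, adjusted p = 0.0724, without RGd2 2i replicate 31). *Klf2* was at 4970 normalized counts in RGd2 2i replicate 33, where the other RGd2 libraries in 2i had 2070 and 1886, and its difference was 1.22 without that library. The cause of the differences was not tested, and groups of 3 or fewer libraries were not searched for outlying values.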

How the results depend on the processing

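The direction of the uneven call counts held under every setting, but their size did not. Against 3939 higher and 485 lower genes, TMM gave 2302 and 1612, gene-based median-of-ratios factors 2239 and 1721, and a 1.5-fold minimum 2306 higher genes. Total spike-in counts, DESeq2, a fit of only the 5 libraries, no filter, another CPM rule and a mean FPKM of at least 1 kept both counts within 1.5 times, at 3425 to 5146 and 380 to 668. Leaving out 1 library in turn gave 1911 to 3601 higher genes, the lowest without *Etv5*-KO replicate 18, and 245 to 499 lower genes, the lowest without *Etv5*-KO replicate 17. The genes that differed in effect between N16h and 2i numbered 1788 with TMM, 3208 with the clonal line as a block, and 2408 to 7787 with 1 library left out, against 5008. RGd2 2i replicate 33, the shallowest of the 11 libraries in that contrast with 5986857 counts, gave the highest value when left out, and the spike-in share of the RGd2 2i libraries ranged from 0.991% to 1.39%. The genes that differed between *Etv5*-KO and *Rbpj*-KO numbered 3453 with TMM and 1188 to 2052 with 1 library left out, against 2506. The difference in spike-in share stayed between −0.25 and −0.127 percentage points. No paired analysis was possible because the replicate numbers of *Etv5*-KO and RGd2 at N16h are all distinct and no line is in both groups. Of 2397 single-gene values under alternatives, 2166 kept their direction and side of the threshold, 204 lost the call, 5 gained it and 22 changed sign. The sign changed for *Dusp6* at N16h (TMM −0.23, median-of-ratios −0.24, without RGd2 replicate 23 −0.011, without RGd2 replicate 24 −0.0068, without *Etv5*-KO replicate 18 −0.077, up to 0.082 without replicate 17, against 0.0046). With TMM the differences of effects became −0.24 for *Etv1*, −0.38 for *Pou3f1*, −0.20 for *Dnmt3a* and −0.12 for *Fgf4*, and that of *Pou3f1* also changed sign without RGd2 replicate 24 (−0.085), *Etv5*-KO replicate 18 (−0.35) or *Etv5*-KO 2i replicate 26 (−0.14), with 0.47 at most. Against *Rbpj*-KO, TMM gave −0.0018 for *Sox2* and −0.015 for *Fgf5*. Leaving out *Etv5*-KO replicate 17 gave 0.0056 for *Spry4* and 0.00 for *Usp17lb* (3.85 without replicate 18), and leaving out replicate 18 gave −0.17 for *Pou3f1*, −0.028 for *Otx2*, −0.70 for *Fgf5* and 0.092 for *Gm5662*, where leaving out replicate 17 gave 0.65, 0.26, 0.58 and −5.03. Without *Rbpj*-KO replicate 19 *Fgf5* had −0.18, and without replicate 21 *Spry4* had 0.030. The cause of these changes was not tested. Counts per list under each setting were added after the data were seen. Where a group had fewer than 10 counts of a gene, as for *Ly6a* in RGd2, counting error limits its fold.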

Other observations

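Genes of chromosome 13 lay below the rest. The median log2 fold change of its 419 genes, with the minimum raised to 5 CPM, was 0.12, which is 0.12 below the median of all genes. Of these, 74 were called higher and 23 lower, beside 29.3% and 3.6% of all genes at the minimum of 1 CPM. The share of lower genes was larger on chromosome X (27 of 344) and on chromosome 12 (23 of 381). The medians of the other chromosomes lay between −0.063 and 0.029 relative to that of all genes. Nearest to the minimum of 1 CPM were *Gm43294*, included with a mean of 1.0001 CPM in the higher group, and *Cap2*, left out with 0.9996 CPM.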
